A study of Mus musculus with 12 samples.

Results

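Nupr1 is 1 of the 23997 gene rows of an expression table from mouse cumulus cells, and it is described here across all 12 libraries of that table. It was chosen by its measured values, as a gene with a high level in young wild-type cells and a low one in young cells lacking ClpP, so its own levels and differences are given as a description, with no test. Cumulus cells are the granulosa-lineage cells around the oocyte. They came from female C57BL/6J mice that were wild type (WT) or carried the ClpP knockout (ClpP-/-, here KO), at 3 or 6 months of age, with 3 libraries in each of the 4 groups. All mice, KO and WT, were primed with PMSG, a gonadotropin that makes follicles grow, at 5 IU, and cells were collected 44 h later by one of the study's descriptions and 48 h later by another. Each library was made by Smart-Seq2, a full-length cDNA method for small inputs, from 100 cells, and 100 cells were taken per mouse, so each library is read as 1 mouse. The values are FPKM, fragment counts scaled to transcript length and to the mapped total of the library, so levels of different genes can be compared per length.

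Nupr1 (nuclear protein 1, also called p8) is a small, basic, disordered protein that binds chromatin and transcription factors. Its gene is switched on by many stresses, among them amino acid shortage and stress of the endoplasmic reticulum, where the transcription factor ATF4 acts on its promoter. ATF4 is the main output of the integrated stress response, in which kinases phosphorylate the initiation factor eIF2α, general translation slows and a few mRNAs are translated more. ClpP forms the cutting chamber of ClpXP, a protease in the matrix of mitochondria.

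In GENCODE M21 (GRCm38, the build of the files) Nupr1 lies on the minus strand at chr7:126623249-126630861 and has 6 transcripts. The coding transcript Nupr1-201 has 3 exons, 829 exonic bases and an open reading frame of 240 bases for 80 residues, and its last exon holds 3′ UTR alone. No other annotated gene overlaps it. The RefSeq start of the gene, at 126625470, lies 206 bases downstream of the GENCODE start of Nupr1-201, and promoter positions are counted from the RefSeq start.

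The window of 250 bases before the RefSeq start holds, 110 to 103 bases before it, the 8-base C/EBP-ATF composite element, the kind of site that ATF4 and C/EBP proteins bind in stress genes. By the GENCODE model it lies in exon 1 of Nupr1-201, in the 5′ UTR. Stretches of 30 bases around it are shown 5′ to 3′ on the gene's strand, with the element in capitals as TTGCATCA or, on the other strand, TGATGCAA. They are set beside the stretches of those ATF4 and CHOP target genes that hold the same letters and had the largest differences between KO and WT at 3 months. Sequences are from RefSeq promoter windows on GRCm38.p6.
Nupr1 (chr7:126625562-126625591, minus): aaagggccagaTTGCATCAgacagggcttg
Chac1 (chr2:119351038-119351067, plus): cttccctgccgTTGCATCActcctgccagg
Herpud1 (chr8:94386306-94386335, plus): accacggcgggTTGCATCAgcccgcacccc
Vldlr (chr19:27216809-27216838, plus): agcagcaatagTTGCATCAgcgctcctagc
Pycr1 (chr11:120643833-120643862, minus): tgccctgtgtaTGATGCAAtgcacaaggct
Jdp2 (chr12:85599372-85599401, plus): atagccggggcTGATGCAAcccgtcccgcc
Slc7a11 (chr3:50443642-50443671, minus): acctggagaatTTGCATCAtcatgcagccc

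Both strands were searched, and the letters were found in 260 of 32851 windows (0.791%). By gene they were found in 248 of 27025 genes (0.918%) and in 9 of the 32 ATF4 and CHOP target genes with a window. Of the genes whose levels followed Nupr1 most closely, described further on, 8 of those with the highest and 6 of those with the lowest correlation had a window, and none held the element. The Nupr1 window also holds the E-box CACGTG, which 6.02% of windows hold, and TATAA on its own strand, which 16.0% hold. It holds neither TGACGTCA, the cAMP response element, nor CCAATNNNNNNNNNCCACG, the endoplasmic reticulum stress element. The motifs were chosen after the Nupr1 sequence was seen, and a match is a run of letters, not a measured site. Genes with the same letters did not share one difference between KO and WT at 3 months. On the log2(FPKM + 1) scale the difference was -3.79 for Nupr1, -3.05 for Chac1, -1.38 for Herpud1, -0.72 for Vldlr, -0.54 for Jdp2, -0.54 for Slc7a11 and 0.67 for Pycr1. Among the list genes with the letters whose stretches are not shown, it was -0.435 for Tars and 0.058 for Aars, and Fgf21 was not in the fit.

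Clpp, the targeted gene, matched the labels. Its level was 88.2, 130 and 146 FPKM in 3-month WT and 129, 124 and 114 FPKM in 6-month WT. It was 6.63, 1.10 and 2.07 FPKM in 3-month KO and 1.63, 0.769 and 6.32 FPKM in 6-month KO. FPKM summed to between 627194 and 1366495 per library, between 9335 and 10861 genes reached 1 FPKM, and relative depth, read from the spacing of low values, ran from 0.641 to 1.0. Of 14 granulosa and cumulus markers, 12 were above 1 FPKM in all 12 libraries, among them Inha, the inhibin α subunit, at the highest level. Libraries 3-month KO 3, 6-month WT 3 and 6-month KO 3 stood apart with high markers of other ovarian and blood cells. Their scores, the mean of centred theca, stromal, blood and endothelial markers, were 3.103, 2.215 and 3.524. The next highest, 3-month WT 3, had a score of 0.847. Its summed theca and stromal markers, at 164 FPKM, were nevertheless above the 127 FPKM of 6-month WT 3. Results are therefore also given without the 3 libraries, or without library 3 of every group, where that matters.

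The level of Nupr1 in 3-month WT cells was 3637, 2656 and 1204 FPKM in libraries 1, 2 and 3. In 3-month KO cells it was 113, 202 and 190 FPKM. The groups did not overlap, and the lowest WT library was 5.95-fold above the highest KO library. Means were 2499 ± 1224 FPKM in WT and 168 ± 48.6 FPKM in KO (SD, n = 3 each), a ratio of 14.8, so that KO cells had 6.74% of the WT level. Library 3 was the one with the most other-cell markers in both groups. Without 3-month KO library 3 the ratio was 15.9, and without library 3 of both groups it was 19.98.

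At 6 months the WT libraries had 933, 1325 and 678 FPKM of Nupr1, a mean of 979 ± 326 FPKM (SD, n = 3). The 6-month KO libraries had 1892, 182 and 481 FPKM, a mean of 852 ± 913 FPKM (SD, n = 3). The groups overlapped: KO library 1 was above every WT library, and KO libraries 2 and 3 were below every WT library. The KO mean was 331 FPKM without library 1, 1186 FPKM without library 2 and 1037 FPKM without library 3, so this mean rests on single libraries.

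By mean level the order of the groups was 3-month WT, 6-month WT, 6-month KO and 3-month KO. Between 3-month WT and 6-month WT the ratio of means was 2.55, and the 1204 FPKM of 3-month WT library 3 lay under the 1325 FPKM of 6-month WT library 2. The ratio of 6-month WT to 6-month KO was 1.15, well inside the spread of the KO libraries. The ratio of 6-month KO to 3-month KO was 5.06, with 6-month KO library 2 at 182 FPKM inside the 3-month KO range. Only 3-month KO stood clear of both WT groups, and 6-month WT was 5.81-fold above it in the mean. From the highest to the lowest of the 12 libraries the level of Nupr1 spanned 32.3-fold.

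**Figure D1:**
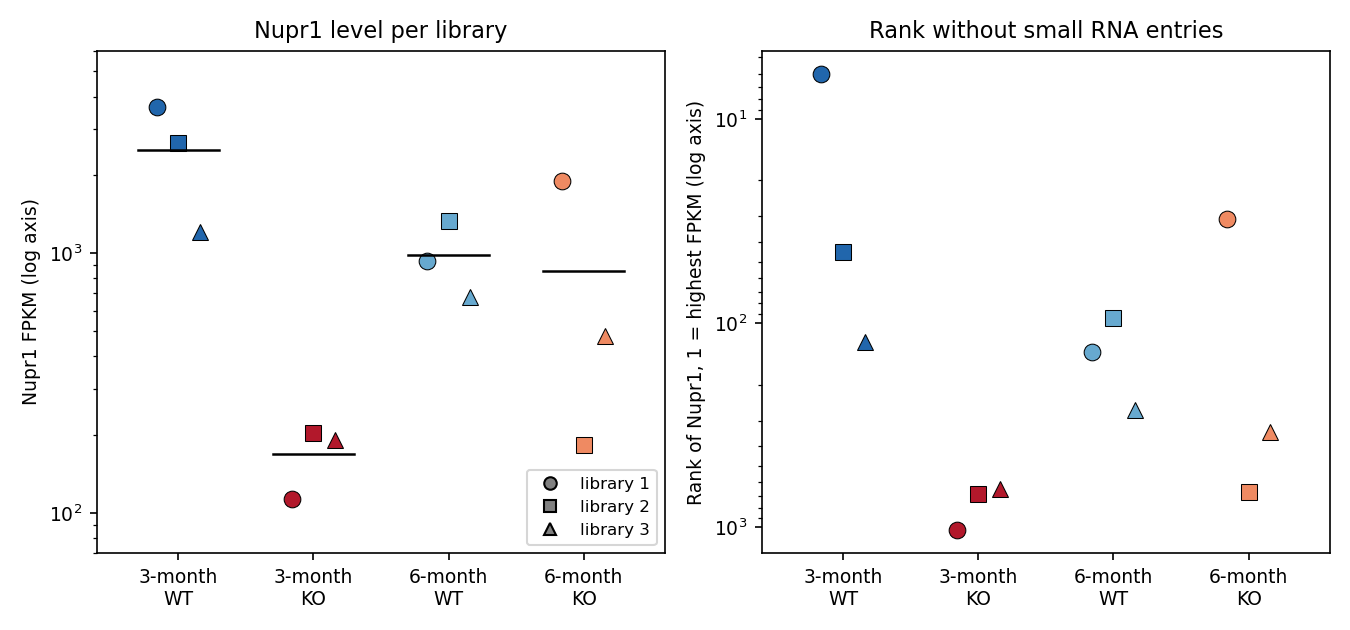
Left, Nupr1 level in FPKM (log axis) in each of the 12 libraries by group, with the group mean as a line; right, the rank of Nupr1 among genes above 0 once small RNA entries are left out (log axis, 1 at the top). The 3 points of 3-month KO sit between 113 and 202 FPKM, below all points of both WT groups, while the 6-month KO points spread from 182 to 1892 FPKM.

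Ranked by FPKM with small RNA entries left out, Nupr1 was gene 6 in 3-month WT library 1, gene 45 in library 2 and gene 123 in library 3. In 3-month KO it was gene 1033, 688 and 649. It was gene 139, 94 and 267 in 6-month WT and gene 31, 669 and 342 in 6-month KO. Between 11858 and 15215 genes were above 0 per library. Nupr1 made up 0.574%, 0.301% and 0.159% of the FPKM sum in 3-month WT, and between 0.0174% and 0.0286% in 3-month KO. In the 3-month WT means it stood next to Rpl10 at 2523 FPKM, a ribosomal protein, and Ldha at 2513 FPKM, lactate dehydrogenase A. These genes were named because they rank next to the Nupr1 mean, so the likeness holds for that mean alone. The 3-month WT libraries ranged from 1204 to 3637 FPKM of Nupr1.

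Set against Inha in the same library, Nupr1 was at 108%, 53.7% and 20.8% of the Inha level in 3-month WT. It was at 2.67%, 3.19% and 7.35% in 3-month KO, without overlap. These ratios, against markers not picked by a set rule, reuse the Nupr1 values that the gene was chosen by. A lack of overlap in them is thus no separate support. Against Fshr and Amh, other granulosa genes, the 3-month groups did not overlap either, but against Cyp19a1, the aromatase gene, they did: Nupr1 was at 2675% of Cyp19a1 in WT library 3 and at 2738% in KO library 3. At 6 months it was at 25.1%, 48.8% and 28.0% of Inha in WT and at 33.5%, 3.91% and 13.8% in KO. In bulk RNA, fewer cells with Nupr1 mRNA and less Nupr1 mRNA per cell cannot be told apart.

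In the fit of all 11196 genes with at least 1 FPKM in at least 3 libraries, the KO minus WT difference of Nupr1 at 3 months was -3.79 ± 0.69 (SE) on the log2(FPKM + 1) scale. It was the 5th largest difference in either direction, after Mir762, Clpp, Snord16a and Tnfaip6. At 6 months the difference was -0.78 ± 0.69 (SE), with 7.34% of genes larger, and it was -1.67 without KO library 1 and 0.017 without KO library 2. The difference between the 2 ages was 3.01, the 24th largest of the table. From 3 to 6 months the WT value changed by -1.26 and the KO value by 1.75, each ± 0.69 (SE). These contrasts share libraries, so the values are not separate observations.

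In those 11196 genes, limma called 1 gene (0.00893%) at 3 months with an adjusted p under 0.05, which was Clpp, and 761 genes had an unadjusted p under 0.05. At 6 months it called 3 genes (0.0268%), Clpp, Snora15 and Snora65, with 137 under the unadjusted threshold. The interaction of genotype and age was called for 1 gene (0.00893%), Snora65, and 224 genes were under 0.05 unadjusted. The age contrast was called for 1 gene (0.00893%) in WT and for 2 genes (0.0179%) in KO, none of them a pathway member, with 833 and 726 genes under 0.05 unadjusted. At 3 months all KO libraries lay below all WT libraries for 584 genes (5.22%), Nupr1 among them, and above for 562 genes (5.02%). At 6 months these counts were 337 genes (3.01%) and 424 genes (3.79%).

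Nupr1 also varied more within groups than most well-expressed genes. Its SD within groups, pooled over the 4 groups, was 1.00 on the log2(FPKM + 1) scale. Among 1169 tested genes with a mean of at least 100 FPKM the median SD was 0.38, and 91.9% of these genes had a lower SD than Nupr1. The range over the 3 libraries was 3.37 in 6-month KO and 1.60 in 3-month WT, wider than 96.2% and 93.2% of these genes. It was 0.96 in 6-month WT and 0.84 in 3-month KO, wider than 77.1% and 63.9% of them. Among the 239 genes whose mean lay within a factor of 2 of the 1124 FPKM mean of Nupr1, 93.7% had a lower SD.

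The genes next to Nupr1 on chromosome 7 were far lower. The nearest protein-coding gene above it in coordinates is Sgf29 (named Ccdc101 in the table), a subunit of histone acetyltransferase complexes, 18448 bases away, at 46.4 ± 12.3 FPKM in 3-month WT and 44.2 ± 3.14 FPKM in 3-month KO (SD, n = 3). Its difference at 3 months was -0.03 ± 0.26 (SE; limma adjusted p = 0.990). The nearest gene below is Il27, a cytokine subunit, 28308 bases away. It had 2.12 ± 2.92 FPKM in 3-month WT (SD, n = 3), an SD above the mean, and was listed at 0 in all 3-month KO libraries. It did not pass the filter on low values. Apobr, Cln3, Sult1a1 and Slx1b, the next neighbours, had means of at most 18.9 FPKM in any group, and none was called at either age.

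The likeness of every gene to Nupr1 was measured as Pearson's r of log2(FPKM + 1) over the 12 libraries. The 12 points share their depth, cell content and group differences, so r is a description and has no p. Of 6421 eligible genes with a mean of at least 5 FPKM, 11 had an r of at least 0.8, 10 had an r of at most -0.8, and none reached 0.9 or -0.9. The genes with the highest r were Itgav (0.84), an integrin α subunit, Zfp655 (0.83), a zinc finger protein, Atf1 (0.83), a CREB-family transcription factor, and Gna13 (0.83), a G protein α subunit. They were followed by Taf4b (0.82), a TFIID subunit known for its part in the ovary, Uso1 (0.82), a vesicle tether, Eif1 (0.81), which takes part in start codon selection, Lysmd3 (0.81), Tigd2 (0.81) and Rgcc (0.80), a regulator of the cell cycle.

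Rgcc and Eif1 were the ones of these whose levels came near that of Nupr1 in 3-month WT. Rgcc had 2170, 4220 and 619 FPKM in 3-month WT and 250.0, 579 and 356 FPKM in 3-month KO. Its 6-month values were 525, 545 and 538 FPKM in WT and 716, 224 and 292 FPKM in KO. As for Nupr1, KO library 1 was above and KO libraries 2 and 3 were below all 6-month WT libraries. Eif1 had 2441, 2357 and 1498 FPKM in 3-month WT and 846, 1300 and 1228 FPKM in 3-month KO, a much smaller difference from a like level. All 3-month KO libraries were below all 3-month WT libraries for 8 of the 10 genes, the exceptions being Zfp655 and Lysmd3. Over all tested genes the share was 5.22%. The count follows largely from the choice of genes by r, since the 3-month groups are the pair farthest apart in Nupr1, so nothing is read from it.

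The genes with the lowest r were Pcgf6 (-0.89), a Polycomb protein, Dcaf4 (-0.86), a ubiquitin ligase adaptor, Id1 (-0.83), an inhibitor of basic helix-loop-helix factors and a target of BMP signalling, and Egfl7 (-0.83), a secreted protein known from endothelial cells. They were followed by Ttc23 (-0.82), Sac3d1 (-0.82), Fam136a (-0.81), Pomk (-0.81), Dhrs3 (-0.81), a retinaldehyde reductase, and Mmachc (-0.80), which processes cobalamin. Id1 had 4.35, 8.94 and 92.9 FPKM in 3-month WT and 347, 259 and 77.4 FPKM in 3-month KO. At 6 months Id1 had 117, 57.8 and 42.5 FPKM in WT and 9.44, 88.3 and 50.3 FPKM in KO. Its lowest values were thus in the 3 libraries with the most Nupr1: 3-month WT 1 and 2, and 6-month KO 1. Dhrs3 was lowest in the same 3 libraries, at 0.700, 3.17 and 2.54 FPKM, against 9.73 to 32.6 FPKM in the other 9.

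**Figure D2:**
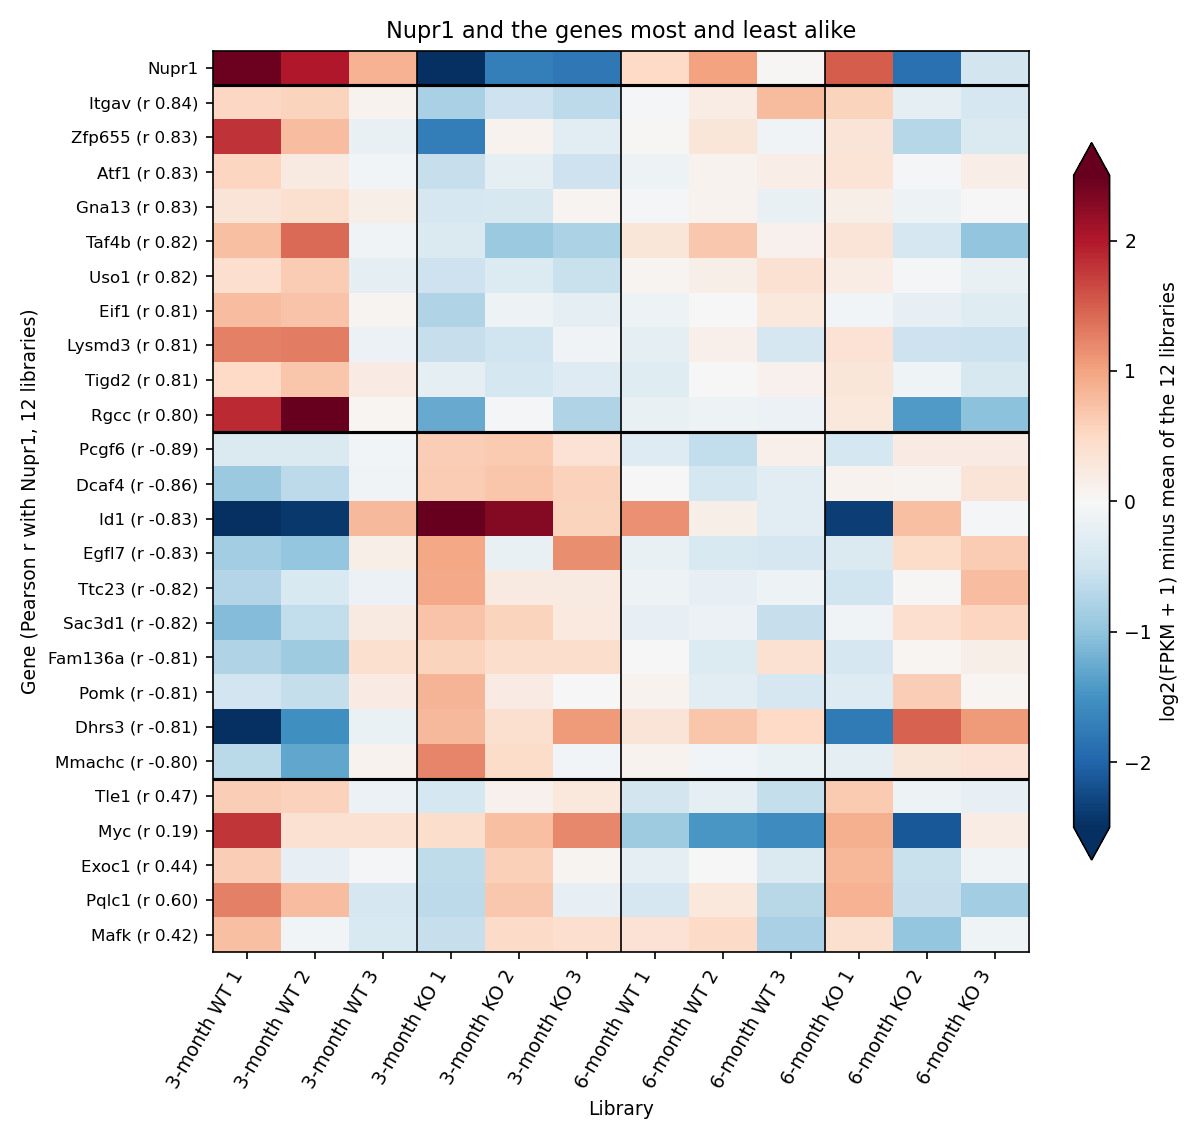
Heat map of log2(FPKM + 1), centred on each gene's mean over the 12 libraries (columns, grouped by age and genotype), for Nupr1, the 10 genes with the highest r, the 10 with the lowest r and the 5 with the highest r of deviations from group means. Colours end at ±2.5. Nupr1 is high in 3-month WT 1 and 2 and in 6-month KO 1, where Id1 and Dhrs3 are low.

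Likeness that the group means do not carry was measured on deviations from the group means. By this measure the closest genes were Tle1 (0.85), a corepressor, Myc (0.84), Exoc1 (0.83), a subunit of the exocyst, Pqlc1 (0.83) and Mafk (0.83), a small MAF protein. Their r over the uncorrected values was only 0.19 to 0.60, and for none of these 5 did the 3-month groups separate. Myc, for example, had 86.5, 31.9 and 32.1 FPKM in 3-month WT and 33.4, 41.6 and 56.9 FPKM in 3-month KO, but 46.0, 4.81 and 27.9 FPKM in 6-month KO, in the order of Nupr1 there. For the 10 genes with the highest r, the r of deviations was 0.48 to 0.79, and without the 2 libraries farthest from the Nupr1 median (3-month KO 1 and 3-month WT 1) their r was 0.65 to 0.85.

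The regulators of the integrated stress response include ATF4, which acts on the Nupr1 promoter, but not every gene of this list is known to act upstream of Nupr1. Atf4 had 694, 445 and 175 FPKM in 3-month WT and 199, 278 and 211 FPKM in 3-month KO. WT library 3 lay below all KO libraries and WT libraries 1 and 2 above them, and the difference of -0.74 ± 0.42 (SE) did not pass limma's test (adjusted p = 0.774). Atf4 followed the order of Nupr1 within 3-month WT, with r = 0.54 over the 12 libraries, but at 6 months it was 203, 154 and 211 FPKM in KO, where Nupr1 differed 10.4-fold. ATF4 is known to be controlled largely at translation, which mRNA levels do not show.

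Ddit3, which encodes CHOP, another transcription factor of this response, had 372, 104 and 65.9 FPKM in 3-month WT and 15.7, 59.2 and 143 FPKM in 3-month KO, with r = 0.69. In 6-month KO it had 127, 20.1 and 125 FPKM, and library 2 was the lowest for Ddit3 and Nupr1 alike. Trib3, a pseudokinase induced by CHOP, had 52.8 FPKM in 3-month WT library 1 and at most 11.8 FPKM in any other library. Asns, asparagine synthetase, had 210.0, 110 and 34.3 FPKM in 3-month WT and 51.1, 75.8 and 77.5 FPKM in 3-month KO. Atf4, Ddit3, Trib3 and Asns were picked for their known roles after their values were seen. All 4 were highest in 3-month WT library 1, which also had the most Nupr1. Without that library the Nupr1 difference at 3 months was -3.45.

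Of the 21 regulators tested, 12 were below 0 at 3 months and 10 at 6 months, with medians of -0.35 and 0.01 against 0.01 and 0.01 over all genes, and 0 were called at either age. Cebpg, a partner of ATF4 on composite elements, differed by -1.26 ± 0.39 (SE) at 3 months (limma adjusted p = 0.664). Eif2ak3, the kinase PERK, had 2.96, 4.41 and 1.76 FPKM in 3-month WT and 1.23, 1.63 and 0.266 FPKM in 3-month KO, without overlap, a difference of -0.997 ± 0.38 (SE; limma adjusted p = 0.690). Impact, an inhibitor of the kinase GCN2, had 12.6, 19.0 and 5.01 FPKM in 3-month WT and 6.98, 3.64 and 3.70 FPKM in 3-month KO, a difference of -1.08 ± 0.44 (SE; limma adjusted p = 0.719). Eif2ak4, GCN2 itself, had 1.18, 0.189 and 1.80 FPKM in 3-month WT and 2.94, 2.14 and 2.97 FPKM in 3-month KO. It was higher in KO, also without overlap, by 0.92 ± 0.38 (SE; limma adjusted p = 0.719). Of this list 2 genes had all 3-month KO libraries below all WT libraries and 3 had them above. Over all genes the shares were 5.22% and 5.02%, and nothing is read from these counts.

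**Figure D3:**
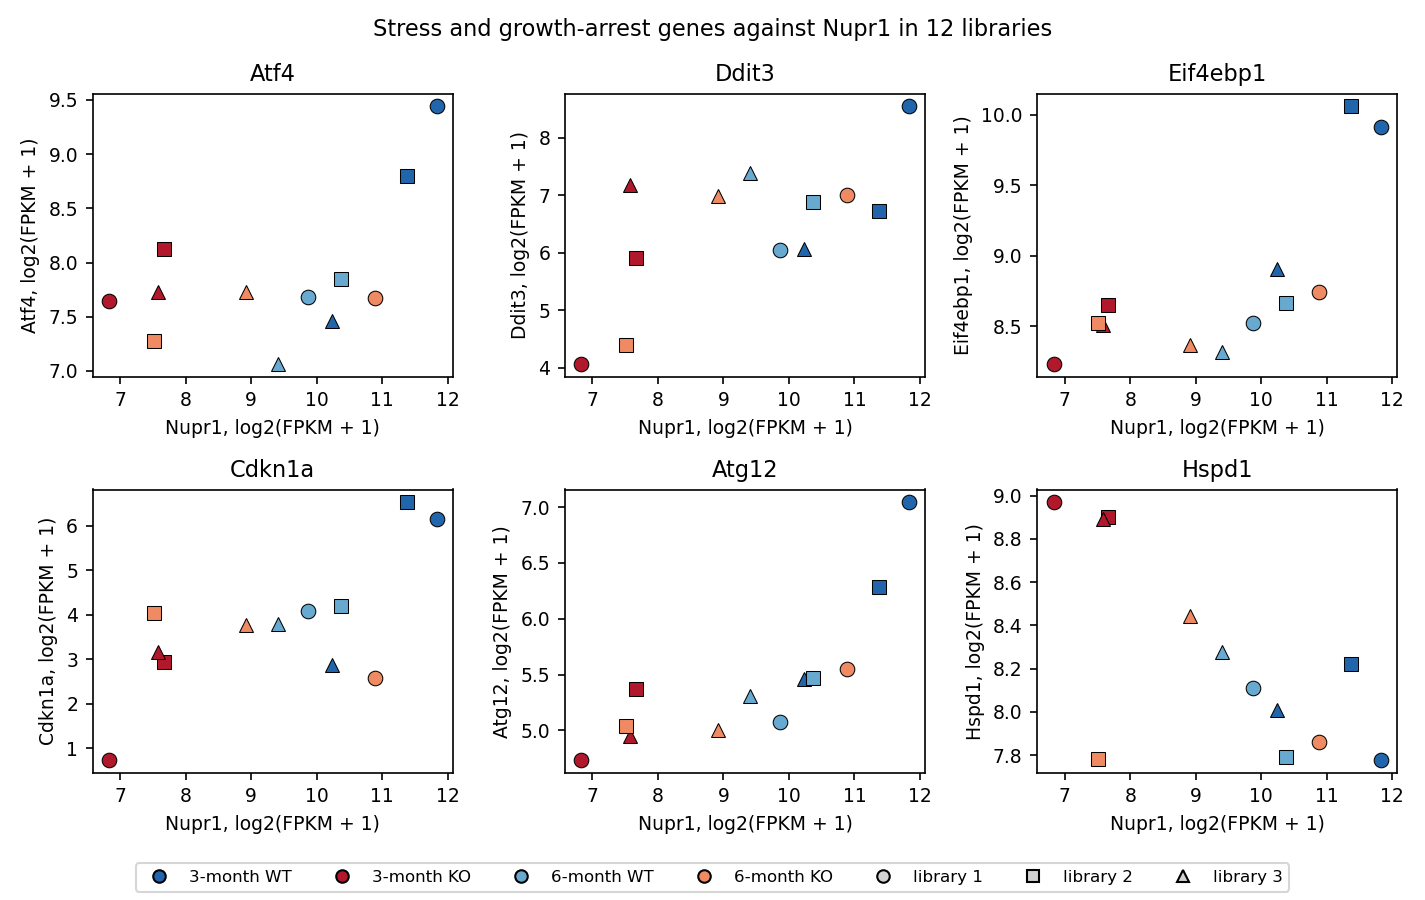
Log2(FPKM + 1) of Atf4, Ddit3, Eif4ebp1, Cdkn1a, Atg12 and Hspd1 (vertical axes, each with its own range) against that of Nupr1 (horizontal axes) in the 12 libraries, coloured by group and shaped by library number. 3-month WT libraries 1 and 2 lie at the upper right for Atf4, Eif4ebp1, Cdkn1a and Atg12, and the 3-month KO libraries lie together at the upper left for Hspd1.

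Among targets of ATF4 and CHOP, Eif4ebp1, an inhibitor of cap-dependent translation, followed Nupr1 with r = 0.73. It had 964, 1067 and 480 FPKM in 3-month WT and 300.1, 401 and 364 FPKM in 3-month KO, without overlap, a difference of -1.16 ± 0.29 (SE; limma adjusted p = 0.628). At 6 months it had 368, 406 and 319 FPKM in WT and 427, 368 and 330.0 FPKM in KO. Chac1, which degrades glutathione, had 158, 15.6 and 0.494 FPKM in 3-month WT. In 3-month KO it was listed at 0 in libraries 1 and 2 and had 5.94 FPKM in library 3, a difference of -3.05 ± 1.46 (SE; limma adjusted p = 0.747) that rests on WT libraries 1 and 2.

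Of 42 target genes 37 were tested, 20 were below 0 at 3 months and 9 at 6 months, the medians were -0.05 and 0.24, and 0 were called. The list's score, the mean of its centred members in each library, had r = 0.23 with Nupr1 (rho 0.06), and -0.17 without the 2 libraries farthest from the Nupr1 median. The score was 1.10, 0.36 and -0.30 in 3-month WT and -0.01, 0.34 and 0.15 in 3-month KO, ordered as for Nupr1 within each group. All 3-month KO scores were above that of 3-month WT library 3, although Nupr1 was lowest in 3-month KO. In the 6-month groups the order was not that of Nupr1. The score of the regulators had r = 0.45, and 0.07 without the 2 libraries farthest from the Nupr1 median. On deviations from the group means r was 0.41 for the targets and 0.60 for the regulators. At 6 months the target Cth, a cysteine synthesis enzyme, differed by 1.56 ± 0.66 (SE; limma adjusted p = 1.00), opposite in sign to Nupr1.

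Of the 26 chaperones, sensors and other genes of the endoplasmic reticulum response tested, 23 were below 0 at 3 months and 19 at 6 months, against 48.7% of all genes at 3 months, with medians of -0.33 and -0.18, and 0 were called. In 3-month KO library 3, high in other-cell markers, this list's score was -0.78, the lowest of the 12 libraries, and the part of the library in the list's median was not tested. Xbp1, a transcription factor of this response, differed by -1.13 ± 0.50 (SE; limma adjusted p = 0.730) at 3 months. The score had r = 0.41 with Nupr1.

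Mitochondrial proteostasis genes are the chaperones and proteases that keep proteins folded where ClpP works. Of the 17 tested, 4 were below 0 at 3 months and 6 at 6 months, the medians were 0.40 and 0.09, and only Clpp was called at each age (adjusted p = 0.00872 at 3 months and 0.00279 at 6 months, limma). Hspd1, the matrix chaperone HSP60, had 219, 297 and 257 FPKM in 3-month WT and 500, 477 and 474 FPKM in 3-month KO. All KO libraries were above all WT libraries, with a difference of 0.92 ± 0.24 (SE; limma adjusted p = 0.628). The r of Hspd1 with Nupr1 was -0.70. Dnaja3, a matrix co-chaperone, was also higher in every 3-month KO library than in any 3-month WT library. It differed by 0.87 ± 0.27 (SE; limma adjusted p = 0.664), with r = -0.73. The call of Clpp at 3 months was lost without 3-month WT library 2 (limma adjusted p = 0.108), 3-month KO library 2 (0.0621) or 3-month KO library 3 (0.0719). At 6 months the differences were -0.03 for Hspd1 and 0.16 for Dnaja3.

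Nupr1 is known to take part in autophagy and cell cycle arrest, and to oppose ferroptosis. Atg12, the ubiquitin-like protein of autophagosome formation, was the closest list member, with r = 0.80 and rho = 0.92. It had 131, 77.0 and 43.1 FPKM in 3-month WT and 25.6, 40.4 and 29.8 FPKM in 3-month KO, without overlap, a difference of -1.25 ± 0.37 (SE; limma adjusted p = 0.664). Of 28 autophagy genes tested, 18 were below 0 at 3 months and 11 at 6 months, with medians of -0.11 and 0.17. Of 19 iron and ferroptosis genes these counts were 12 and 9, with medians of -0.13 and 0.06. None of either list was called at either age.

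Cdkn1a, the cyclin-dependent kinase inhibitor p21, had 70.4, 91.2 and 6.34 FPKM in 3-month WT and 0.666, 6.67 and 7.97 FPKM in 3-month KO. WT libraries 1 and 2 were high and WT library 3 was in the KO range, and the difference of -2.91 ± 0.88 (SE) was not called (limma adjusted p = 0.664). Mdm2, the ubiquitin ligase of p53, had 44.4, 37.7 and 16.1 FPKM in 3-month WT and 12.7, 18.5 and 13.0 FPKM in 3-month KO, with r = 0.72 (difference -1.01 ± 0.37 SE; limma adjusted p = 0.690). Of 15 p53 targets tested, 7 were below 0 at 3 months and 8 at 6 months, the medians were 0.05 and -0.07, and 0 were called.

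Among relatives and partners of the protein, the paralogue Nupr1l had between 0 and 12.7 FPKM in any library, with group means of 1.37, 1.06, 1.64 and 5.16 FPKM in 3-month WT, 3-month KO, 6-month WT and 6-month KO. Ptma, prothymosin α, which NUPR1 binds, was abundant everywhere, at 914 to 1961 FPKM. Ier3, an early response gene described downstream of NUPR1, had 190.0, 808 and 176 FPKM in 3-month WT and 27.0, 67.4 and 153 FPKM in 3-month KO, without overlap, a difference of -2.18 ± 0.68 (SE; limma adjusted p = 0.664). Of the 13 tested, 7 were below 0 at 3 months and 9 at 6 months, with medians of -0.29 and -0.30, and 0 were called.

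Immediate-early genes answer to handling and dissociation as well as to growth factors. Of 23 tested, 5 were below 0 at 3 months and 17 at 6 months, with medians of 0.79 and -0.61, and 0 were called. Klf2 had 13.4, 10.8 and 75.9 FPKM in 3-month WT and 129, 95.9 and 91.1 FPKM in 3-month KO. All KO libraries were above all WT libraries, a difference of 2.16 ± 0.59 (SE; limma adjusted p = 0.664). Fos differed by 2.68 ± 0.87 (SE; limma adjusted p = 0.664). The list's score had r = -0.55 with Nupr1, and -0.54 without the 2 libraries farthest from the Nupr1 median, and its part in the Nupr1 difference was not tested.

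Over all 172 pathway genes tested, 101 were below 0 at 3 months and 80 at 6 months, with medians of -0.14 and 0.05. At 3 months 12 members (6.98%) had all KO libraries below all WT libraries and 12 (6.98%) had them above, against 5.22% and 5.02% of all genes. At 6 months the counts were 10 (5.81%) and 5 (2.91%), against 3.01% and 3.79% of all genes, so nothing is read from them. Only Clpp was called at either age, and 0 pathway members were called in the interaction or in the age contrasts. With library 3 of every group left out, which leaves 2 libraries a group and was chosen after seeing the data, limma called 85 genes at 3 months. Among them were 4 pathway members: Clpp, Eif4ebp1 (adjusted p = 0.0445), Cdkn1a (0.0445) and Cebpg (0.0460). The immediate-early gene Klf2 was also called then (limma adjusted p = 0.0185). Shares over all genes are not given for this fit, so nothing is read from the number of members called. In this fit Clpp (-4.755) and Cdkn1a (-4.504) had larger differences at 3 months than Nupr1 (-4.354). Those of Eif4ebp1 (-1.545), Cebpg (-1.935) and Klf2 (3.107) were smaller.

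**Figure D4:**
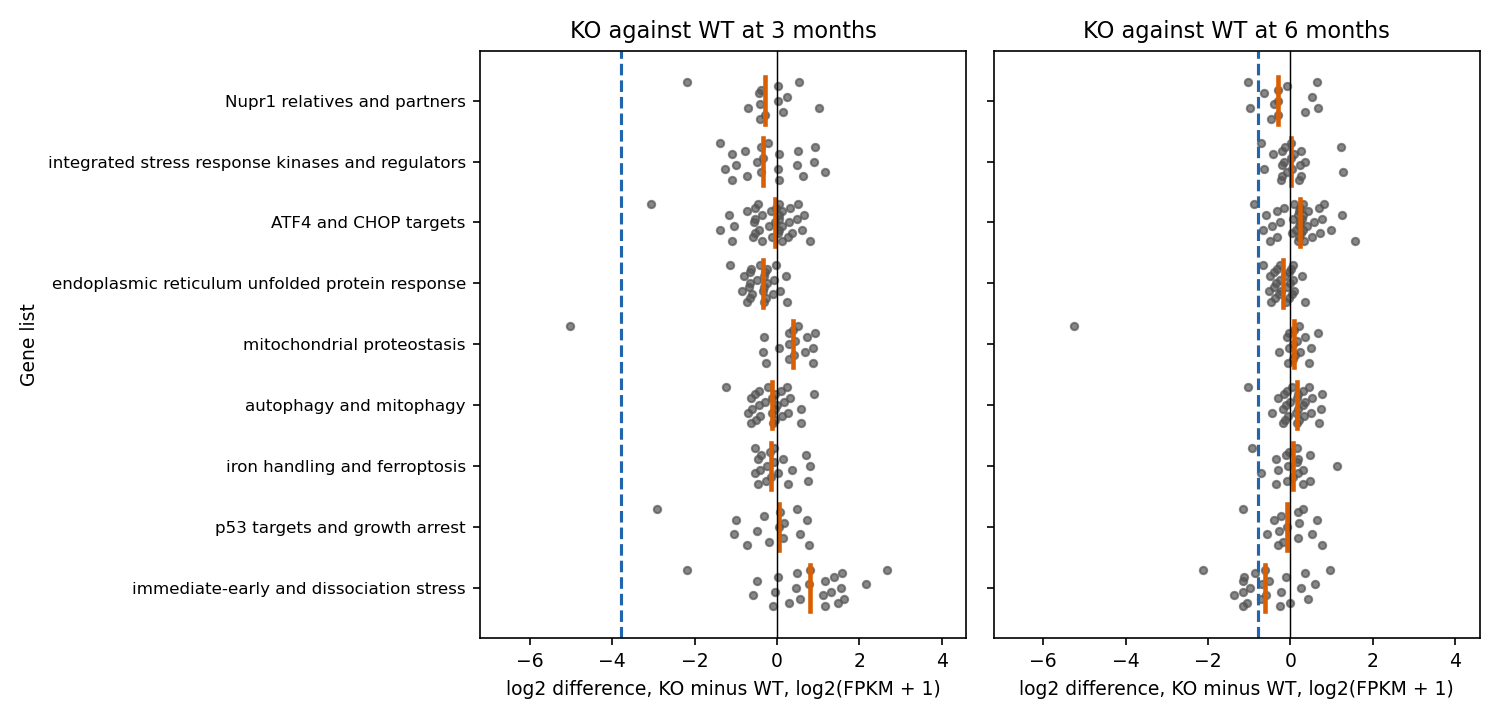
KO minus WT difference in log2(FPKM + 1) of each tested gene in 9 lists at 3 months (left) and 6 months (right), 1 point a gene, with the list median as an orange bar and the Nupr1 difference as a dashed blue line. The point near -5 in mitochondrial proteostasis is Clpp; all other genes lie to the right of Nupr1 at 3 months, and the medians of immediate-early and mitochondrial genes are above 0 there.

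Markers of other cells were read beside Nupr1 in each library. The summed level of 11 theca and stromal markers was 5.56 to 164 FPKM in 3-month WT and 0.600 to 1333 FPKM in 3-month KO, and that of 11 blood and leukocyte markers was 6.36 to 747 FPKM and 0.854 to 787 FPKM. The ranges overlapped in both lists, and no marker was at 0 in all 12 libraries. The 3 libraries with the most Nupr1 all had low theca sums, at 4.58 to 11.3 FPKM, and the score of the theca list had r = -0.38 with Nupr1. 3-month KO libraries 1 and 2 had theca sums of 76.8 and 0.600 FPKM and Nupr1 at 113 and 202 FPKM. 3-month WT library 3, the WT library with the least Nupr1, had the highest theca and blood sums of its group, at 164 and 747 FPKM. With the 3 libraries of the highest other-cell score left out the 3-month difference of Nupr1 was -3.90, and with library 3 of every group left out it was -4.35.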

How the data were processed

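RNA from 12 mouse cumulus cell libraries was measured, 3 per group. The deposited FPKM values were made by the authors on GRCm38/mm10. The submitters' processing notes name TopHat2 2.0.10 with Bowtie2 2.1.0, Cufflinks 1.2.1, SAMtools 0.1.18, cutadapt and FastQC. Which gene annotation they used is not stated in the sources used here. The table gives no counts, so total depth per library is unknown and no counting error can be given. Low values carry the error of few reads.

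The Nupr1 row was read in each library and ranked among all genes above 0. Values were analysed as log2(FPKM + 1), which understates the change of low genes, for 11196 genes with at least 1 FPKM in at least 3 libraries. The fit used limma 3.58.1 in R 4.3.3 with 4 group means, eBayes with trend, 8 residual and 3.9 prior degrees of freedom, and Benjamini-Hochberg adjustment over all 11196 genes, 2-sided, threshold 0.05. The script was tested on simulated data. Each library was read as 1 mouse, which the labels do not state. Gene lists, named members (relatives and partners of Nupr1, of other lists some of the 4 with the smallest p at each age) and likeness rules (mean of at least 5 FPKM, predicted, date-named and small RNA entries passed over) were chosen with earlier results of these data known. The genes called in the age contrasts are not reported here by name. Promoter windows and gene models are from RefSeq GRCm38.p6 and GENCODE M21.

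The labels number libraries 1 to 3 in each group without saying what a number shares. With group means removed, libraries with the same number had correlations of 0.158, 0.373 and 0.465 between 6-month WT and KO. Between the 2 ages of KO they were 0.114, 0.394 and 0.653. In both comparisons library 1 matched library 2 best and library 2 matched library 1 best. Only library 3, high in other-cell markers in these groups, matched its own number best. The correlations thus do not show that numbers mark pairs, and the main fit used no pairing. In the other comparisons at least 1 pair was under 0.1. Alternatives were other pseudocounts, filters, scalings, a fit without trend, only the 2 groups compared, the replicate block, and each library left out. Leaving out the 3 libraries high in other-cell markers, or library 3 of every group, was added after seeing the data.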

Additional observations from a re-analysis of the deposited data

Results flagged for a closer look

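Cops5, a subunit of the COP9 signalosome described as a NUPR1 partner, and Klf2, a Krüppel-like transcription factor, had KO and WT libraries that did not overlap at either age, in opposite directions at 3 and 6 months. For Cops5 the KO minus WT difference was -0.29 at 3 months and 0.35 at 6 months, so the difference between the ages was 0.64 ± 0.29 (SE) on the log2(FPKM + 1) scale. For Klf2 these values were 2.16, -1.12 and -3.28 ± 0.83 (SE). Neither passed limma's test of the interaction over all genes (adjusted p = 1.00 for both).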

How the results depend on the processing

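Over 23 alternatives the Nupr1 difference stayed between -4.35 and -3.45 at 3 months. Many of these settings cannot move a difference of 2 group means. They are other filters, the replicate block, the fit without trend, only the 2 groups compared, and leaving out a library of another group. At 3 months all of these gave -3.79. At 6 months it turned to 0.017 without 6-month KO library 2, and leaving out 1 library gave -1.67 to 0.017. It stayed at 2.12 to 3.81 for the interaction, at -1.72 to -0.92 for age in WT and at 0.86 to 2.54 for age in KO. Under the replicate block, which cannot move the Nupr1 difference in this balanced design, 1 gene was called at 3 months, and no call changed in the other contrasts.

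Genes called at 3 months, and pathway members called there, were 0 with a pseudocount of 0.1 and 0 with no filter. Leaving out 1 library gave 0 to 9 genes and 0 to 1 pathway members: 9 genes without 3-month WT library 3, and 0 genes, with the call of Clpp lost, without 3-month WT library 2, 3-month KO library 2 or 3-month KO library 3 (limma adjusted p of Clpp 0.108, 0.0621 and 0.0719). Pathway members called at 6 months were 0 with only the 2 groups compared. Genes called for the interaction were 0 with a pseudocount of 5 and 0 with no filter, and 0 to 3 with 1 library left out, the 3 being without 3-month WT library 3. For age in WT they were 2 with only 2 groups compared and 1 to 9 with 1 library left out, the 9 being without 3-month WT library 3, with 0 to 2 pathway members (Gadd45a and Xbp1 without 3-month WT library 3). For age in KO they were 4 with only 2 groups compared. With library 3 of every group left out, 85 genes and 4 pathway members were called at 3 months, 0 genes for the interaction, and 38 genes and 2 pathway members (Tars and Xbp1) for age in WT. Shares over all genes are not given for these fits, so nothing is read from the numbers of members called. The cause of the changes was not tested. Rescaling without small RNA moved the median of all genes to 0.12 at 3 months, and Nupr1 relative to that median was -3.77. Between 15 and 20 of the 20 genes most alike were found again among the 50 most alike at each end.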
